A study of Homo sapiens with 18 samples.

Results

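Aminoacyl-tRNA synthetases load each tRNA with its own amino acid, and so supply the ribosome with every charged tRNA it uses. Nuclear genes encode a cytosolic set and a largely separate mitochondrial set, while GARS1 and KARS1 each serve both compartments. Several cytosolic enzymes sit together in a multisynthetase complex, and many cytosolic synthetase genes are known targets of ATF4, the transcription factor of the amino acid and integrated stress responses. The 35 member genes were the 19 cytosolic and 16 mitochondrial enzymes of a given list, out of 19740 genes named on the arrays. All 35 were found, by 38 of the 42405 probes, through the RefSeq accession of the probe. Every one of these probes was well above background on all 18 arrays, so that none was lost to the filter on dim signals. The mitochondrial names end in 2. Where a gene had several probes (IARS1 and MARS1), the brightest was used.

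The cells were Huh1 and Huh7, which are established human hepatocellular carcinoma (HCC) lines. Both were left as control or exposed for 48 hours to disulfiram (DSF, 0.1 µM), an inhibitor of aldehyde dehydrogenase, or to 5-fluorouracil (5-FU, 1 µM), a pyrimidine analogue used against tumours. EpCAM+ cells, the tumour-initiating fraction that the study was about, were isolated by flow cytometry, a step that the labels list after treatment, and total RNA was hybridised to 1-colour arrays. There were 3 arrays in each of 6 groups, from independent experiments according to the methods. DSF was given with CuCl2 according to the methods, and what the control cells received was not given in the sources used here, so that the effect of DSF and that of copper cannot be told apart.

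The arrays had 59.9% to 71.1% of probes well above background and none saturated. Liver transcripts were bright on every array, with ALB between 7.88 and 8.68 and KRT18 between 7.26 and 7.87 log2 units above the 75th percentile of the array. Of the markers of other cells, COL3A1 was well above background on 1 array, COL1A2 on 2, CD3E on 6, COL1A1 on 11, VWF on 13 and PTPRC on all 18, where PTPRC lay between −5.02 and −4.33 on that scale. EPCAM, used for the sort, lay between 1.93 and 6.15 and fell with DSF, by 0.66 ± 0.17 in Huh1 and 0.50 ± 0.17 in Huh7. CD68 and PECAM1, which mark macrophages and endothelium, were well above background on all 18 arrays and were higher after 5-FU in Huh7, by 1.59 ± 0.21 and 1.02 ± 0.16 (SE). VWF, the other endothelial marker, went the other way there. It was at −5.27, −5.43 and −5.34 in Huh7 control and −5.79, −5.91 and −5.91 after 5-FU. VWF, dim on every array, rose by 1.17 ± 0.12 with DSF in Huh1. There PECAM1 went from −0.9, −1.18 and −1.22 in control to −1.61, −1.69 and −1.66 after DSF, all lower. Of the 8 markers of other cells 6 could be tested, and at most 2 were called higher and 1 lower for a drug against its control. Their part in the changes described here was not tested. In bulk samples fewer cells of a type and less RNA per cell cannot be told apart. The arrays lay on 3 slides. Huh1 was on slide 1 except for DSF replicate 3, which was on slide 2, and Huh7 was on slide 2 except for DSF replicates 2 and 3, which were on slide 3. In 4 groups replicate 1 stood farther from the other two arrays than they did, with a median distance over probes of 0.152 for Huh1 control, 0.2 for Huh1 5-FU, 0.188 for Huh7 5-FU and 0.177 for Huh7 DSF.

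Unless stated otherwise, a value below is the log2 signal of a probe minus the log2 75th percentile of its array, and a change is a difference of group means of such values, with its SE from limma (3 arrays against 3). A change was called at a Benjamini-Hochberg adjusted p under 0.05 over the 29894 probes tested. This scale is relative to the other transcripts of the same array. The median change over all probes was 0.00 for DSF in Huh1, 0.08 for DSF in Huh7, −0.03 for 5-FU in Huh1 and −0.05 for 5-FU in Huh7. On arrays scaled to the 6 spiked-in control probes, the same medians were 0.14, −0.09, 0.79 and 0.94. The 5-FU arrays were thus brighter as a whole against the spike-ins, and each 5-FU change below is a change against that shifted background.

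The promoters of the members are shown first, since the cytosolic enzymes are divided below by whether they are known to respond to ATF4, which binds the C/EBP-ATF element. That element was searched as TGATGNAA on both strands. RefSeq promoters of GRCh38.p14, from 250 bases before to 50 bases after a start, were given for 30 of the 35 members. YARS1, LARS1, VARS1, AARS2 and VARS2 were without an entry. The letters were present in 8 of 39 member promoters (20.51%) and in 3.62% of all 35116 promoters. By gene, they were present for 7 of 10 ATF4-responsive cytosolic members, 0 of 6 other cytosolic members and 1 of 14 mitochondrial members. The ATF4-responsive list comes from general knowledge of that factor. It was chosen with the earlier results of these data known, and a match is a description of the letters, not of a bound site. The matches lay from 33 bases before the start to 15 bases after it for CARS1, MARS1, IARS1, GARS1, TARS1 and NARS1, and farther upstream for AARS1 and YARS2. The stretches below are in the direction of the gene, with the match in capitals. GARS1 and TARS1 are given as 30 bases because another listed start lies upstream of them.
CARS1, chr11:3057404-3057483, minus strand: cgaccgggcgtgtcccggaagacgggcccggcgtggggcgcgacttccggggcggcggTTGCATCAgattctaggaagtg
MARS1, chr12:57488006-57488085, plus strand: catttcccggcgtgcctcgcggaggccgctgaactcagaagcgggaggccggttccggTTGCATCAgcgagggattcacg
IARS1, chr9:92293689-92293768, minus strand: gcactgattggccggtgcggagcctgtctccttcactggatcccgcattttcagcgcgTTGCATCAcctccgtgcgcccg
NARS1, chr18:57621807-57621886, minus strand: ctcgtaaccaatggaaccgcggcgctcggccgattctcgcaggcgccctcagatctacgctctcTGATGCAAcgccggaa
AARS1, chr16:70289672-70289751, minus strand: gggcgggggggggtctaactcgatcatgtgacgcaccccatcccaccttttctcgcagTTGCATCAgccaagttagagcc
GARS1, chr7:30594837-30594866, plus strand: cgcggcgaTTTCATCAtgctccgagccggg
TARS1, chr5:33440959-33440988, plus strand: cctttcgaTTGCATCAgctggtccagccga
YARS2, chr12:32756068-32756147, minus strand: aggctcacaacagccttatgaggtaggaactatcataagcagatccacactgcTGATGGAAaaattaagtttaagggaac

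The other motif searched, the E-box CACGTG, was found in 4 of the 30 genes: MARS2, CARS2, EARS2 and IARS1. This sequence, bound by MYC and related factors, was in 12.82% of the member promoters and 7.26% of all promoters. The same EARS2 site was counted there in overlapping promoters, and by gene the shares were 13.33% and 8.77%. Of the 8 members with the C/EBP-ATF letters, CARS1, GARS1, TARS1 and NARS1 rose with DSF in Huh1, IARS1 fell, and MARS1, AARS1 and YARS2 were not called there. SARS1, EPRS1 and WARS1 had an entry without the letters and rose with DSF in Huh1.

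With DSF in Huh1 more cytosolic enzymes rose than fell (8 and 4, but 4 and 4 when arrays were scaled to their median), and mitochondrial enzymes fell or were not called. Of the 35 members, 8 were higher and 12 lower, where 23.9% of all tested probes were called higher and 20.3% lower. All 8 that rose were cytosolic and belonged to the ATF4-responsive list of 12, whose median change was 0.27. Of the other 7 cytosolic enzymes none rose, and QARS1, VARS1 and FARSB fell. Of the 16 mitochondrial enzymes 0 rose and 8 fell, with a median of −0.27. Scaling to the array median left 4 cytosolic members higher and put the median of the 19 cytosolic enzymes at −0.05, against 0.12. Scaling to the spike-ins left 6 higher and 2 of the mitochondrial enzymes lower. Without Huh1 control 1, 6 of the 12 ATF4-responsive enzymes were called higher.

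**Figure D1:**
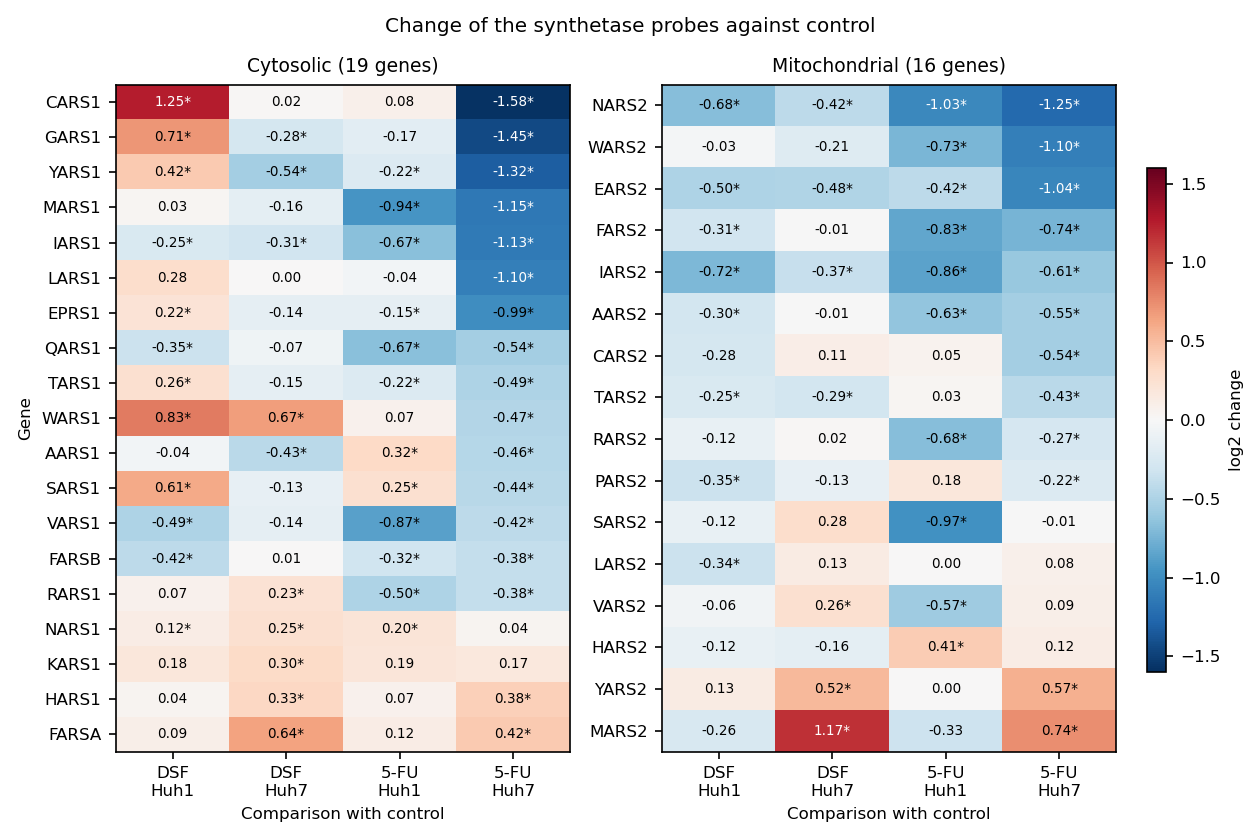
Change of each synthetase probe against control (log2, colour and printed value), cytosolic enzymes on the left and mitochondrial on the right, ordered by the 5-FU change in Huh7. An asterisk marks a limma adjusted p under 0.05 (3 arrays against 3); with DSF in Huh1 all 8 called increases are cytosolic, and the 5-FU columns are mostly decreases on this scale, whereas 23 members in Huh1 and 24 in Huh7 were called higher against the spike-ins.

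CARS1, the cysteinyl enzyme, moved most. Its values were −0.94, −0.43 and −0.45 in Huh1 control, 0.62, 0.68 and 0.63 after DSF and −0.72, −0.37 and −0.49 after 5-FU. All DSF arrays lay above all control arrays, and the 5-FU arrays overlapped the controls. The DSF change was 1.25 ± 0.13 (2.38-fold, limma adjusted p = 2.86e-06). Without Huh1 control 1, the lowest array, it was 1.08.

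In Huh7 the CARS1 values were 0.20, 0.22 and 0.16 in control, 0.06, 0.30 and 0.29 after DSF and −1.5, −1.25 and −1.39 after 5-FU. Here the DSF arrays lay on both sides of the controls, and the 5-FU arrays lay below all others. The DSF change was 0.02 ± 0.13 (adjusted p = 0.898) and the 5-FU change −1.58 ± 0.13 (2.98-fold lower, adjusted p = 1.24e-07). The same gene therefore rose with 1 drug in 1 line and fell with the other drug in the other line.

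GARS1, the glycyl enzyme of both compartments, had values of 2.02, 2.48 and 2.52 in Huh1 control and 3.07, 2.99 and 3.09 after DSF. The groups did not overlap, and the change was 0.71 ± 0.11 (1.64-fold, adjusted p = 8.98e-05). After 5-FU its values were 2.07, 2.24 and 2.21, within the range of the controls. In Huh7 the controls were at 2.5, 2.53 and 2.57, DSF at 2.15, 2.28 and 2.31, and 5-FU at 1.02, 1.06 and 1.15. The order in Huh7 was control, DSF, 5-FU with no overlap. The DSF change there, −0.28 ± 0.11 (adjusted p = 0.0426), lost its call when any 1 of the 6 Huh7 control and DSF arrays was left out (without DSF 1 it was −0.23). The 5-FU change was −1.45 ± 0.11 (2.74-fold lower, adjusted p = 4.52e-08). CARS1, GARS1 and YARS1 were the 3 cytosolic members still called lower after 5-FU in Huh7 against the spike-ins, at −0.59, −0.47 and −0.34.

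YARS1, the tyrosyl enzyme, was at 1.65, 1.87 and 1.84 in Huh1 control, 2.22, 2.20 and 2.21 after DSF and 1.47, 1.59 and 1.63 after 5-FU. It rose by 0.42 ± 0.08 with DSF (adjusted p = 0.000374), a call lost under median scaling (0.25), and the change with 5-FU was −0.22 ± 0.08 (adjusted p = 0.0251), a call lost without Huh1 5-FU 1 (−0.17), control 2 (−0.18) or control 3 (−0.20). In Huh7 the values were 2.61, 2.64 and 2.61 in control, 2.19, 2.01 and 2.03 after DSF and 1.20, 1.29 and 1.4 after 5-FU. Both drugs left it below every Huh7 control array, by 0.54 ± 0.08 with DSF (adjusted p = 5.08e-05) and 1.32 ± 0.08 with 5-FU (adjusted p = 4.34e-09).

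WARS1, the tryptophanyl enzyme, also known as an interferon-induced gene, rose with DSF in both lines. It was at 1.24, 1.57 and 1.5 in Huh1 control and 2.22, 2.24 and 2.32 after DSF. In Huh7 it was at 1.99, 2.02 and 2.04 in control and 2.67, 2.68 and 2.72 after DSF. Neither pair of groups overlapped. The changes were 0.83 ± 0.11 (1.77-fold, adjusted p = 3.16e-05) and 0.67 ± 0.11 (adjusted p = 0.000207), and the difference between the lines, −0.16 ± 0.16, was not called (adjusted p = 0.45). After 5-FU it was at 1.31, 1.62 and 1.59 in Huh1, among the controls, and at 1.32, 1.57 and 1.74 in Huh7, below them, though it was 0.51 higher there against the spike-ins.

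Of the remaining members of that group, SARS1 (seryl) rose by 0.61 ± 0.07, TARS1 (threonyl) by 0.26 ± 0.08, EPRS1 (glutamyl and prolyl) by 0.22 ± 0.06 and NARS1 (asparaginyl) by 0.12 ± 0.05 with DSF in Huh1. The NARS1 call was close to the threshold (adjusted p = 0.0482), and its change was −0.05 under median scaling. LARS1 (leucyl), at 0.28 ± 0.11, did not pass (adjusted p = 0.0511). AARS1 (alanyl) and MARS1 (methionyl) were at −0.04 and 0.03. IARS1, the isoleucyl enzyme, was the exception in the list. Its values were 4.18, 4.28 and 4.27 in Huh1 control and 4.05, 3.95 and 3.98 after DSF, all lower. The change of −0.25 ± 0.08 (adjusted p = 0.0256) was lost without Huh1 DSF 2 (−0.23), DSF 3 (−0.24), control 2 (−0.23) or control 3 (−0.23). A second IARS1 probe gave −0.25, and the dimmest gave 0.03 (adjusted p = 0.826). The second probe of MARS1 was called higher, at 0.34 ± 0.09 (adjusted p = 0.00878), where the brighter probe was not.

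ATF4 itself and genes downstream of it, other than the synthetases, showed a like picture in Huh1. Of these 18 genes, 10 rose with DSF and 1 fell, where 23.9% and 20.3% of all tested probes did. Their median was 0.31. ASNS, the asparagine synthetase, rose by 1.23 ± 0.22, the stress factor DDIT3 by 2.69 ± 0.13, ATF3 by 2.97 ± 0.14, TRIB3 by 0.88 ± 0.11 and SESN2 by 1.41 ± 0.09. PSAT1, of serine synthesis, was the gene that fell, by 0.40 ± 0.12. ATF4 transcript itself was at 0.19 ± 0.08 (adjusted p = 0.0754). Scaling to the array median left 7 of the 18 called higher, and scaling to the spike-ins gave 11.

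The mitochondrial side of DSF in Huh1 was led by IARS2, NARS2 and EARS2. IARS2, the isoleucyl enzyme, was at 4.40, 4.28 and 4.27 in control and 3.62, 3.58 and 3.60 after DSF, a fall of 0.72 ± 0.08 (adjusted p = 7.49e-06). NARS2, the asparaginyl enzyme, was at 1.74, 1.74 and 1.66 in control and 1.13, 1.01 and 0.96 after DSF, a fall of 0.68 ± 0.09 (adjusted p = 3.08e-05). EARS2, the glutamyl enzyme, was at 0.08, 0.19 and 0.12 in control and −0.32, −0.43 and −0.35 after DSF, a fall of 0.50 ± 0.08 (adjusted p = 0.000119). The DSF arrays of each gene lay below all its controls. PARS2, LARS2, FARS2, AARS2 and TARS2 fell by 0.25 to 0.35, and the other 8 mitochondrial members lay between −0.28 and 0.13 without a call. FARS2 had values of 0.47, 0.63 and 0.56 in control and 0.27, 0.19 and 0.26 after DSF, and its call was lost without Huh1 control 2 (−0.27). TARS2 had 1.42, 1.34 and 1.32 in control and 1.14, 1.12 and 1.07 after DSF. The 4 genes that finish mitochondrial aminoacyl-tRNAs by amidation or formylation (QRSL1, GATB, GATC and MTFMT) all fell too, by 0.19 to 0.61, and 1 of them was still called lower against the spike-ins. Of 10 liver marker genes 9 fell in the same comparison, with a median of −0.65, where 20.3% of all tested probes fell. The part of that liver marker shift in the fall of the synthetases was not tested.

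In Huh7, DSF called 9 members higher and 8 lower, against 27.3% and 19.4% of all tested probes. The split of Huh1 was not repeated: 6 cytosolic and 3 mitochondrial enzymes rose, and 4 of each class fell. The ATF4-responsive list had 2 higher and 4 lower with a median of −0.15, and the other 7 cytosolic enzymes had 4 higher and 0 lower with a median of 0.23. Those 4 were FARSA (phenylalanyl, 0.64 ± 0.05), HARS1 (histidyl, 0.33 ± 0.06), KARS1 (lysyl, 0.30 ± 0.08) and RARS1 (arginyl, 0.23 ± 0.06). Scaled to the spike-ins, 1 of those 7 was called higher, as were 3 of the 35 members. The 8 lower calls became 2 with the slide as a block, and 2 when slide 2 alone was compared, with 1 DSF array against 3 controls. That array, Huh7 DSF 1, was also the farthest of its group, so that the slide and this array cannot be told apart.

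MARS2, the mitochondrial methionyl enzyme, rose most in Huh7. Its values were −4.70, −4.84 and −4.75 in control, −3.89, −3.51 and −3.39 after DSF and −3.71, −4.20 and −4.15 after 5-FU. Every treated array was above every control, but the probe was dim throughout. The change was 1.17 ± 0.14 with DSF (2.25-fold, adjusted p = 9.88e-06) and 0.74 ± 0.14 with 5-FU (adjusted p = 0.000284), and the latter fell to 0.13 and lost its call with normexp background correction. In Huh1 the values were −3.45, −3.72 and −3.75 in control, −3.94, −3.86 and −3.90 after DSF and −3.95, −4.00 and −3.96 after 5-FU. Neither change in Huh1 was called (−0.26 ± 0.14 and −0.33 ± 0.14). YARS2 and VARS2 were the other mitochondrial members that rose with DSF in Huh7, by 0.52 ± 0.07 and 0.26 ± 0.09. YARS2 rose with 5-FU too, by 0.57 ± 0.07, and both changes of YARS2 in Huh1 were without a call.

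EARS2, IARS2, NARS2, TARS2 and IARS1 fell with DSF in both lines. In Huh7 EARS2 was at 0.55, 0.64 and 0.54 in control and 0.29, 0.00 and 0.00 after DSF. NARS2 was at 1.31, 1.28 and 1.25 in control and 1.13, 0.69 and 0.77 after DSF. IARS2 was at 4.13, 4.15 and 4.19 in control and 3.93, 3.71 and 3.72 after DSF. In each of the 3 the DSF array of slide 2 was nearest to the controls, and the other two, of slide 3, were lower. TARS2 went from 1.24, 1.29 and 1.34 to 1.17, 0.93 and 0.92, and IARS1 from 4.72, 4.75 and 4.78 to 4.64, 4.32 and 4.35, with the same order. With the slide as a block the changes were −0.22 for IARS2, −0.15 for NARS2, −0.12 for TARS2 and −0.10 for IARS1, none of them called. EARS2 was still called, at −0.29, and on slide 2 alone it was at −0.29 without a call. Slide 3 held DSF arrays alone.

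After 5-FU most of the called synthetases fell on the array scale, but not against the spike-ins, where 23 of 35 in Huh1 and 24 of 35 in Huh7 were called higher. On the array scale 4 members were higher and 18 lower in Huh1, where 22.2% and 26% of all tested probes were. In Huh7 4 were higher and 25 lower, where 27.3% and 29.7% of all tested probes were. On the array scale the 19 cytosolic enzymes had a median of −0.15 in Huh1 and −0.47 in Huh7, and the 16 mitochondrial enzymes one of −0.50 and −0.35, against medians over all probes close to 0. The cytosolic median in Huh1 was −0.08 without Huh1 control 3 and −0.04 under quantile scaling. Both sets of medians were above 0 when scaled to the spike-ins (0.67 and 0.33 in Huh1, 0.51 and 0.63 in Huh7). The all-probe medians on that scale, 0.79 and 0.94, were higher still.

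NARS2 had the largest mean fall of the members that were lower in both lines. It was at 0.70, 0.64 and 0.74 after 5-FU in Huh1 and −0.02, 0.03 and 0.07 in Huh7, below every control and every DSF array of the line. The falls were 1.03 ± 0.09 (2.04-fold, adjusted p = 7.98e-07) and 1.25 ± 0.09 (2.39-fold, adjusted p = 3.97e-08), and they were −0.20 and −0.27 without a call against the spike-ins.

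MARS1 and IARS1, both of the multisynthetase complex, fell together. MARS1 was at 3.89, 4.2 and 4.2 in Huh1 control and 3.20, 3.13 and 3.16 after 5-FU, and at 4.80, 4.82 and 4.82 in Huh7 control and 3.55, 3.69 and 3.75 after 5-FU. The 5-FU arrays were well below in both lines, by 0.94 ± 0.08 (adjusted p = 4.86e-07) and 1.15 ± 0.08 (adjusted p = 2.1e-08), and near control against the spike-ins (−0.11 and −0.17, not called). IARS1 was at 3.47, 3.61 and 3.62 after 5-FU in Huh1 and 3.50, 3.68 and 3.68 in Huh7, lower than control by 0.67 ± 0.08 and 1.13 ± 0.08. In the complex as a whole, 5 of 7 enzymes fell in Huh1 and 6 of 7 in Huh7, with medians of −0.50 and −0.99. Of all tested probes 26% fell in Huh1 and 29.7% in Huh7. When scaled to the spike-ins, 4 and 3 of the 7 were called higher. KARS1 was the member of the complex called in neither line. Of the 3 scaffold proteins of the complex, AIMP1 was at 0.14 and 0.08 and EEF1E1 at 0.12 and 0.08, without a call. AIMP2 fell by 0.29 ± 0.06 in Huh1 and rose by 0.39 ± 0.06 in Huh7 on the array scale, while against the spike-ins all 3 were called higher in both lines.

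WARS2 (tryptophanyl) and FARS2 (phenylalanyl) fell with 5-FU on the array scale in both lines, but not against the spike-ins. WARS2 was at −0.64, −0.29 and −0.40 in Huh1 control and −1.21, −1.08 and −1.23 after 5-FU, and at 0.28, 0.34 and 0.32 in Huh7 control and −0.77, −0.69 and −0.91 after 5-FU. With DSF it was at −0.44, −0.51 and −0.48 in Huh1 and 0.19, 0.08 and 0.05 in Huh7, without a call in either line. FARS2 was at −0.23, −0.33 and −0.28 after 5-FU in Huh1, and went from −0.50, −0.52 and −0.52 to −1.45, −0.98 and −1.32 in Huh7. The 5-FU arrays of both genes lay below all controls. The falls were 0.73 ± 0.09 and 1.1 ± 0.09 for WARS2, and 0.83 ± 0.09 and 0.74 ± 0.09 for FARS2, and against the spike-ins none of the 4 was called (−0.12 to 0.25).

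IARS2 was at 3.56, 3.41 and 3.41 after 5-FU in Huh1 and 3.72, 3.45 and 3.48 in Huh7. EARS2 was at −0.36, −0.23 and −0.28 in Huh1 and −0.43, −0.43 and −0.53 in Huh7. Both were below their controls on every array, a fall that against the spike-ins turned to 0.41 for EARS2 in Huh1 and 0.38 for IARS2 in Huh7. SARS2 (seryl) and RARS2 (arginyl) fell by 0.97 ± 0.13 and 0.68 ± 0.09 in Huh1, and by 0.27 ± 0.09 in Huh7 for RARS2, while SARS2 in Huh7 spread from 0.60 to 1.36 after 5-FU around controls of 0.93 to 1.04. HARS2 was the 1 mitochondrial member that rose with 5-FU in Huh1, by 0.41 ± 0.08.

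The ATF4-responsive list differed between the lines after 5-FU. In Huh7 11 of the 12 fell and 0 rose, with a median of −1.05, where 29.7% and 27.3% of all tested probes did. In Huh1 5 fell and 3 rose, with a median of −0.10, where 26% and 22.2% did, so the rises there were near the share of all probes. The Huh1 counts were 2 lower and 1 higher under median scaling, and 3 and 3 under quantile scaling. Against the spike-ins 3 fell and 5 rose in Huh7 and 10 rose in Huh1, with medians of −0.06 and 0.73. LARS1 fell by 1.1 ± 0.11 in Huh7 and was at −0.04 ± 0.11 in Huh1. EPRS1 fell by 0.99 ± 0.06 in Huh7 and 0.15 ± 0.06 in Huh1, the latter close to the threshold (limma adjusted p = 0.0492). NARS1 was the member of the 12 not called in Huh7 (0.04 ± 0.05). On the array scale AARS1 and SARS1 were called in opposite directions. Their falls in Huh7, 0.46 ± 0.10 and 0.44 ± 0.07, were smaller than the median rise of 0.94 over all probes against the spike-ins. Neither gene thus fell in Huh7 on the spike-in scale. AARS1 went from 1.75, 2.06 and 2.07 to 2.33, 2.28 and 2.23 in Huh1, above all controls, and from 2.98 on all 3 arrays to 2.34, 2.59 and 2.64 in Huh7, below them. SARS1 went from 4.92, 5.19 and 5.15 to 5.28, 5.36 and 5.35 in Huh1, and from 4.16, 4.16 and 4.19 to 3.63, 3.81 and 3.74 in Huh7.

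The 18 genes made up of ATF4 and its other downstream genes split between the lines after 5-FU as well. In Huh7 14 of the 18 fell and 2 rose, with a median of −1.03, where 29.7% and 27.3% of all tested probes did. In Huh1 7 fell and 6 rose, with a median of −0.11, where 26% and 22.2% did. Against the spike-ins 6 of the 18 fell and 6 rose in Huh7, and 14 rose in Huh1. ASNS went from 6.80, 6.79 and 6.89 to 3.44, 4.2 and 4.17 in Huh7, a fall of 2.89 ± 0.22. CHAC1, a glutathione-degrading enzyme, fell by 3.12 ± 0.27 and the cystine transporter SLC7A11 by 2.93 ± 0.16. In Huh1 ASNS was at −0.18 ± 0.22, and DDIT3 rose by 2.21 ± 0.13. On the array scale ATF4 transcript fell by 0.95 ± 0.08 in Huh7 and by 0.45 ± 0.08 in Huh1. The median change of all probes against the spike-ins was 0.94 in Huh7 and 0.79 in Huh1. The ATF4 fall was thus about as large as that shift in Huh7 and smaller than it in Huh1.

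The cytosolic enzymes were also counted by structural class. Class I enzymes, with a Rossmann fold, and class II enzymes, with an antiparallel sheet, are unrelated in their catalytic domains. All 9 class I members fell with 5-FU in Huh7 on the array scale, with a median of −1.1. Of the 9 class II members 5 fell and 2 rose, with a median of −0.38, where 29.7% and 27.3% of all tested probes did. Against the spike-ins 4 class I members rose and 2 fell, and 8 class II members rose and 1 fell. EPRS1, which holds an enzyme of each class, was left out. FARSA and HARS1 were the class II members that rose, by 0.42 ± 0.05 and 0.38 ± 0.06. In Huh1 6 class I members fell and 0 rose, and 2 class II members fell and 3 rose. Of all tested probes 26% fell and 22.2% rose there, so the class II counts were close to those shares. Against the spike-ins 5 class I and 9 class II members rose in Huh1 and none fell. Of the 9 class I members 6 are on the ATF4-responsive list, so the 2 divisions overlap, and the difference between the classes was not tested.

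The difference between the lines was tested in the same fit. For DSF it was called for 15 members, 8 with the Huh7 change higher and 7 with it lower, where 21.1% and 19.2% of all tested probes were. This balance depended on the processing, with 16 higher and 4 lower under median scaling, 13 and 7 under normexp correction, and 1 and 8 against the spike-ins. With the slide as a block it was 11 and 4, with 8 mitochondrial enzymes higher. The 4 lower ones were then on the ATF4-responsive list, whose median was −0.26. On the 75th percentile scale without a block all 7 lower ones were on the ATF4-responsive list, and the higher ones were 4 of the other cytosolic enzymes and 4 mitochondrial enzymes. For 5-FU it was called for 22 members, 8 higher and 14 lower, where 18.8% and 17.8% of all tested probes were, and 5 higher and 5 lower against the spike-ins. Of those 14, 9 were ATF4-responsive and 5 mitochondrial. In the ATF4-responsive list the medians of the line difference were −0.37 for DSF and −0.73 for 5-FU, and they kept their sign under scaling to the median (−0.22 and −0.68), to quantiles (−0.48 and −0.87) and to the spike-ins (−0.68 and −0.57). For the mitochondrial enzymes the DSF median was 0.30, and it became 0.43 with the slide as a block and −0.01 against the spike-ins. The 2 drug comparisons of a line share their control arrays, so that a control level that is high in Huh7 and low in Huh1 enters both.

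**Figure D2:**
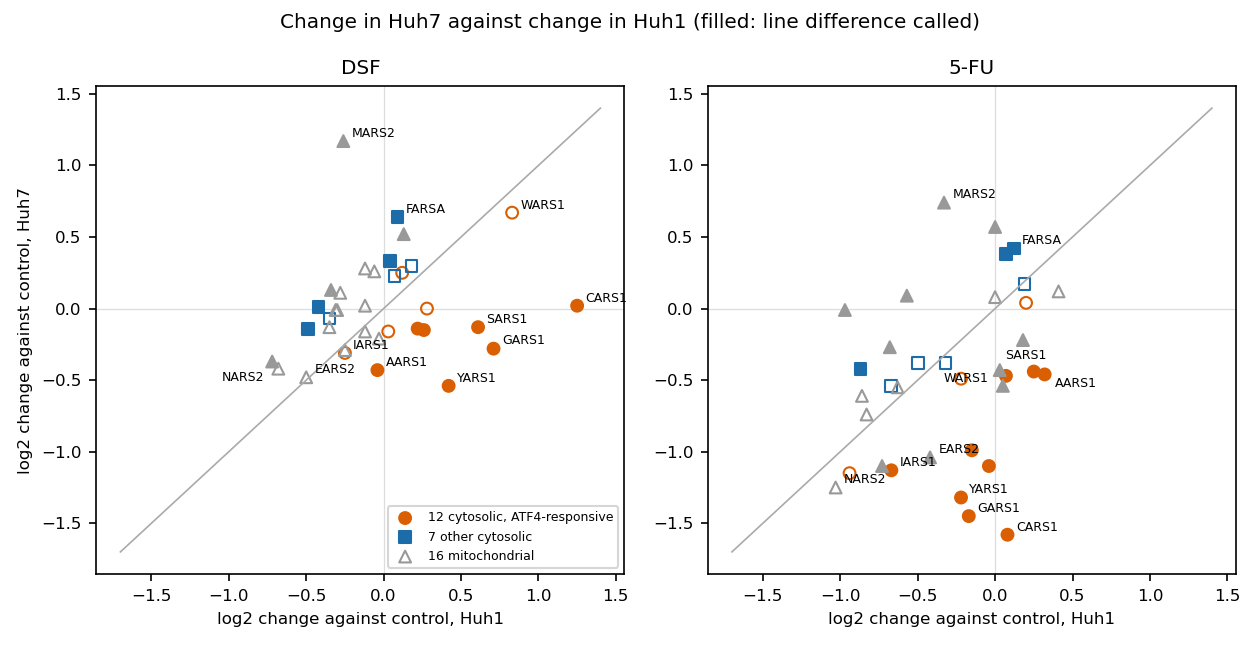
Change against control in Huh7 (vertical, log2) plotted against that in Huh1 (horizontal, log2) for the 35 synthetases, DSF on the left and 5-FU on the right. Filled symbols mark a called difference between the lines, the diagonal marks equal change, and on this scale all 12 ATF4-responsive cytosolic enzymes lie below it for 5-FU, with CARS1 lowest at −1.66 from it.

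The control levels of the members differed about as often as those of all tested probes. Their median absolute difference was 0.51, against 0.65 over all probes. Between the untreated lines 14 members were higher in Huh7 and 12 lower, where 34.5% and 36.2% of all tested probes were. In the ATF4-responsive list 7 were higher and 1 lower, with a median of 0.44 (0.28 under median scaling and 0.51 against the spike-ins). AARS1 was higher in Huh7 by 1.02 ± 0.10, YARS1 by 0.83 ± 0.08, CARS1 by 0.80 ± 0.13 and MARS1 by 0.72 ± 0.08. SARS1 was the member of the list that was lower, by 0.92 ± 0.07. FARSA and HARS1, outside the list, were lower in Huh7 by 1.06 ± 0.05 and 1.00 ± 0.06, and of the mitochondrial members CARS2 was lower by 1.27 ± 0.12.

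A difference between groups of enzymes within an array is not changed by scaling to the array's 75th percentile, its median or the spike-ins, though quantile scaling can change it. The mean of the 12 ATF4-responsive enzymes minus that of the other 7 cytosolic enzymes was −1.08, −0.83 and −0.78 in Huh1 control, −0.40, −0.39 and −0.41 after DSF and −0.84, −0.68 and −0.69 after 5-FU. The DSF arrays of Huh1 stood above all controls, and the 5-FU arrays overlapped them. In Huh7 it was −0.23, −0.22 and −0.24 in control, −0.56, −0.50 and −0.50 after DSF and −1.14, −0.92 and −0.96 after 5-FU. There both drugs lowered it on every array, 5-FU more than DSF, so that DSF moved it up in Huh1 and down in Huh7. These means are descriptions with no test, and their absolute level, which depends on the probes, carries no information.

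The mean of the cytosolic minus that of the mitochondrial enzymes was 1.74, 1.94 and 1.95 in Huh1 control, 2.32, 2.33 and 2.35 after DSF and 2.04, 2.12 and 2.12 after 5-FU. Both drugs raised it in Huh1 on every array. In Huh7 it was 2.02, 2.02 and 2.03 in control, 1.94, 2.04 and 2.03 after DSF and 1.65, 1.74 and 1.86 after 5-FU. The DSF arrays lay around the controls and the 5-FU arrays below them, so that 5-FU shifted the balance towards cytosolic transcripts in Huh1 and towards mitochondrial ones in Huh7.

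**Figure D3:**
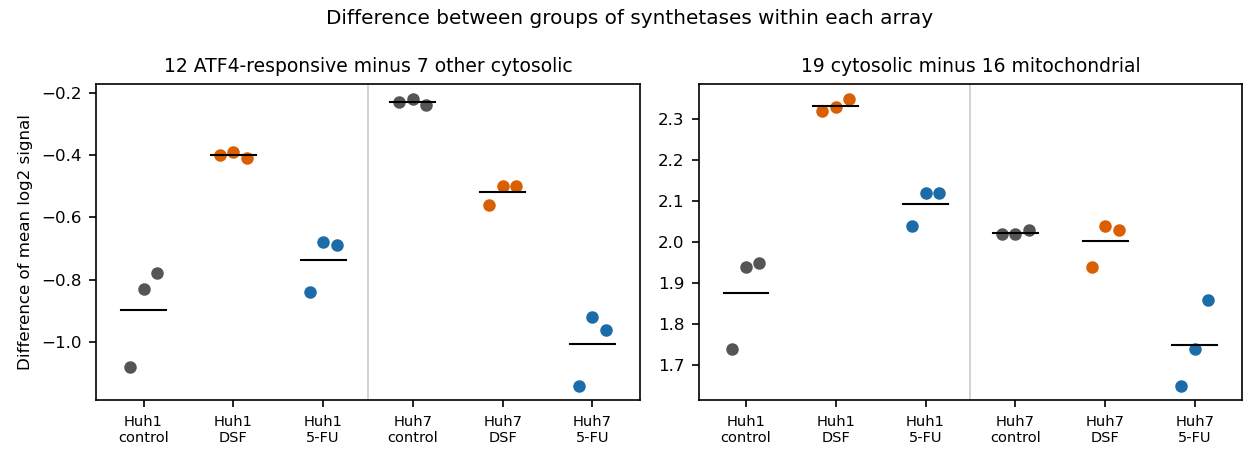
Difference of mean log2 signal between groups of synthetases on each array: the 12 ATF4-responsive minus the 7 other cytosolic enzymes (left) and the 19 cytosolic minus the 16 mitochondrial enzymes (right), with points for arrays and lines for means of 3. On the left, DSF lies at −0.41 to −0.39 in Huh1, above controls of −1.08 to −0.78, and at −0.56 to −0.50 in Huh7, below controls of −0.24 to −0.22.

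Compared directly, DSF left more synthetase signal than 5-FU on the array scale in both lines, and less than 5-FU against the spike-ins. In Huh1 20 members were higher with DSF and 6 lower, where 28.7% and 20.6% of all tested probes were, and 1 was higher and 19 lower against the spike-ins. In Huh7 25 were higher and 1 lower, where 35.6% and 25% of all tested probes were, and 1 was higher and 27 lower against the spike-ins. CARS1 was the member with the largest difference in both lines, 1.17 ± 0.13 in Huh1 (adjusted p = 4.89e-06) and 1.6 ± 0.13 in Huh7 (adjusted p = 1.16e-07). HARS2 was lower with DSF in both lines, by 0.54 ± 0.08 and 0.28 ± 0.08.

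Other genes that handle tRNA were examined from lists beside the members. Of 12 genes of tRNA export, maturation and delivery, 8 fell and 1 rose with 5-FU in each line, with medians of −0.29 and −0.38, but 11 rose in Huh1 and 9 in Huh7 against the spike-ins. On the array scale 26% of all tested probes fell and 22.2% rose with 5-FU in Huh1, and 29.7% and 27.3% in Huh7. For the 12 genes quantile scaling gave 3 lower and 2 higher in Huh1 (median −0.04), and 6 lower and 1 higher in Huh7 (median −0.19). EEF1A1, which carries charged tRNA to the ribosome, fell by 0.43 ± 0.06 in Huh1 and 0.83 ± 0.06 in Huh7, and the tRNA exporter XPOT fell by 0.64 ± 0.09 in Huh7 and was at 0.02 ± 0.09 in Huh1. With DSF 5 of the 12 fell and 0 rose in Huh1, where 20.3% and 23.9% of all tested probes did. In Huh7 0 fell and 3 rose, where 19.4% and 27.3% did, so the rises there were near the share of all probes. None of the 12 was called in either line against the spike-ins. For the 4 amidation and formylation genes the change in Huh7 was above that in Huh1 for both drugs (4 of 4 called for each). Of all tested probes 21.1% were called so for DSF and 18.8% for 5-FU. Against the spike-ins 3 of the 4 genes were still called for 5-FU and 0 for DSF.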

How the data were processed

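RNA of 18 samples was hybridised by the authors to Agilent SurePrint G3 arrays, and the deposited scanner files give the processed signal intensity of each spot, background-corrected by Agilent Feature Extraction (10.7.1.1 per the file headers). The normalized table, deposited as intensity over the 75th percentile of each array and used as an alternative, matched these signals within 0.05 log2 for 100% of probes. Here spots flagged as outliers were left out, intensities were averaged per probe on the log2 scale, and the log2 75th percentile of each array was subtracted. Probes entered the test where every array of some group had them well above background. All 6 groups entered 1 fit (lmFit and eBayes, limma 3.58.1, R 4.3.3) with Benjamini-Hochberg adjustment over 29894 probes and a threshold of 0.05. The script was tested on simulated data.

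Members, lists and tests were chosen with earlier results of these data known. Members were read at their brightest probe. Values per array are given for the 6 members with the largest mean change among those called alike in both lines, per drug, the 4 with the largest called line difference, per drug, and others that a subgroup needs. Samples with the same replicate number did not deviate together (r −0.093 to 0.024 over 18 pairs), so they were not paired. Alternatives were other scalings (array median, quantile, 6 spike-in probes), normexp background correction (offset 50, on median signals), other filters, the mean of probes, the deposited table, the slide as a block or 1 slide alone, 1 line alone, and arrays left out. The number of arrays limits the precision. Some arrays of a group lay very close together, as in Huh7 control, with AARS1 at 2.98 and EPRS1 at 5.21 on all 3. How far the SEs cover the variation between independent experiments was not tested. Genes were named through RefSeq accessions, which named 25771 of 27134 RefSeq probes. A list of editing and hydrolysis genes is not reported here.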

Additional observations from a re-analysis of the deposited data

Results flagged for a closer look

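The effect of a drug differed between Huh7 and Huh1, by the interaction contrast of the limma fit, for the following members. For DSF, the difference (Huh7 change less Huh1 change) was 1.43 ± 0.19 for MARS2 (adjusted p = 5.6e-05), −1.23 ± 0.18 for CARS1 (adjusted p = 0.000119), −0.99 ± 0.15 for GARS1 (adjusted p = 0.000154) and −0.97 ± 0.11 for YARS1 (adjusted p = 1.08e-05). For 5-FU, it was −1.66 ± 0.18 for CARS1 (adjusted p = 1.01e-05), −1.29 ± 0.15 for GARS1 (adjusted p = 1.9e-05), −1.10 ± 0.11 for YARS1 (adjusted p = 3.83e-06), 1.07 ± 0.19 for MARS2 (adjusted p = 0.000593), −0.77 ± 0.14 for AARS1 (adjusted p = 0.000599) and −0.69 ± 0.10 for SARS1 (adjusted p = 0.000124). The differences of CARS1, GARS1, YARS1 and MARS2 kept their sign and were called for both drugs against the spike-ins too. Both drug comparisons of a line use the same control arrays, so the entries of 1 gene for the 2 drugs are not independent.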

How the results depend on the processing

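Scaling changed the most. Against the spike-ins, 2 members were called lower with DSF in Huh1, 3 higher with DSF in Huh7, 23 higher and 0 lower with 5-FU in Huh1, and 24 higher and 3 lower with 5-FU in Huh7, and the line difference was called for 9 members with DSF and 10 with 5-FU. The cytosolic and mitochondrial medians were then 0.25 and −0.14 for DSF in Huh1, −0.25 and −0.18 for DSF in Huh7, 0.67 and 0.33 for 5-FU in Huh1, and 0.51 and 0.63 for 5-FU in Huh7. The 5-FU changes that reversed there were IARS1 (0.15), YARS1 (0.60), EARS2 (0.41) and WARS2 (0.10) in Huh1, and WARS1 (0.51), FARS2 (0.25), IARS2 (0.38) and TARS2 (0.55) in Huh7. Median scaling gave 4 higher with DSF in Huh1, 2 higher with 5-FU in Huh1, and DSF medians in Huh1 of −0.05 and −0.44. Quantile scaling gave 15 lower with DSF in Huh7 and a cytosolic median of −0.04 for 5-FU in Huh1. With the slide as a block, and on 1 slide alone, 2 were lower with DSF in Huh7 and the mitochondrial median was 0.11. Chosen after seeing the data, leaving out the farthest array of 4 groups together gave 16 lower with DSF in Huh7 and 8 higher with 5-FU in Huh1, and mitochondrial medians of −0.19, −0.07 and −0.43 for DSF in Huh1, DSF in Huh7 and 5-FU in Huh1. The cause of these shifts was not tested. Leaving out 1 array at a time gave 7 to 8, 8 to 9, 4 to 6 and 4 to 4 members higher and 10 to 12, 7 to 12, 15 to 19 and 24 to 25 lower, for DSF in Huh1, DSF in Huh7, 5-FU in Huh1 and 5-FU in Huh7. The cytosolic median for 5-FU in Huh1 then ran from −0.19 to −0.08, and the mitochondrial median from −0.31 to −0.19, −0.07 to 0.02 and −0.42 to −0.31 for DSF in Huh1, DSF in Huh7 and 5-FU in Huh7. With the replicate number as a block the counts were 7 higher and 11 lower, 9 and 8, 4 and 17, and 4 and 24 in the same order, and the IARS1 change with DSF in Huh1 lost its call (adjusted p = 0.066). Of 1136 alternative values for 54 member changes, 1062 kept direction and call, 66 lost the call (23 of these by leaving out 1 array) and 8 reversed. The line differences could not be fitted within 1 line or 1 slide.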
